A study of Homo sapiens with 18 samples.

Results

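The direct contrast of IFNγ with IL-1β in cells that carried a guide RNA against ERH was drawn from 5 of the 18 libraries of the series, 2 of the sgERH_IFNγ group (replicates 1 and 3) and 3 of the sgERH_IL-1β group. Replicate 2 of sgERH_IFNγ was left out because the study removed it as an outlier in a principal component analysis. All cells were RKO-iCas9, a human colon carcinoma line in which doxycycline switches on Cas9. They had been transduced with a lentiviral guide, sorted as a pool of guide-positive cells and kept in 100 ng/mL doxycycline for 5 days, in every group. The compared groups then received 25 ng/mL IFNγ or 10 ng/mL IL-1β for 4 h. Non-treated cells with the same guide (sgERH_NT, 3 libraries) place the result and share in the estimate of spread. The control guide was for AAVS1, a safe-harbour site (sgAAVS1, 3 libraries with IFNγ and 2 with IL-1β). These sgAAVS1 libraries also place the result, share in the estimate of spread and give the test of the difference between guides. The 2 non-treated sgAAVS1 libraries share in the estimate of spread and place the guide differences of ICAM1, APOL2, DTX3L and NFKBIA only. The study also removed replicate 3 of sgAAVS1_IL-1β and replicate 1 of sgAAVS1_NT as outliers. The pool was not cloned, so it can hold edited and unedited cells, and in a bulk library fewer responding cells and less RNA per cell cannot be told apart. The labels call the libraries biological replicates without saying that they came from separate cultures, so the p-values measure the spread between these libraries, which may be technical.

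IFNγ binds a receptor made of IFNGR1 and IFNGR2, which activates the kinases JAK1 and JAK2. Their signal reaches promoters through GAS elements (gamma-activated sequences) and turns on IRF1 and, with it, genes of antigen presentation and cell-autonomous defence. IL-1β acts through MYD88 and IRAK kinases on the IκB kinase, which frees NF-κB from its inhibitors and turns on chemokines, survival factors and the inhibitors themselves. ERH is a small, conserved nuclear protein found with RNA processing factors.

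Read counts at transcript 3′ ends (QuantSeq, an assay that sequences next to the poly(A) tail) totalled 5059922 to 5406943 in the 5 libraries, and 12474 to 12694 genes per library had at least 10 reads. Levels are given in CPM, counts per 1000000 reads, scaled by TMM, a factor that aligns library compositions. The ERH 3′ end itself stood at 286 and 313 CPM with IFNγ and at 253 to 340 CPM with IL-1β, against 537 to 615 CPM in the 5 sgAAVS1 libraries given a cytokine. The sgERH libraries all lay below the sgAAVS1 libraries, and the cytokine groups overlapped within the ERH guide (log2 difference 0.04 ± 0.12 SE). This count does not see the edit. Of the epithelial markers, EPCAM, KRT8 and KRT18 were read in all 5 libraries, whereas KRT19 and CDH1 had 0 reads in each. CDX2 was the intestinal marker at 11.4 to 17.9 unscaled CPM, and KRT20 had 0. The leukocyte, fibroblast and endothelial markers were each at or below 0.40 unscaled CPM. One library stood apart. Replicate 2 of sgERH_IL-1β differed from replicates 1 and 3 by a chi-square per degree of freedom of 13.8 and 16.9, where replicates 1 and 3 differed by 4.36 and the IFNγ pair by 2.93. In that library SRSF1, a splicing factor, stood at 83.0 unscaled CPM against 173 and 157 in its replicates, and EIF4A3, a core exon junction protein, at 51.6 against 112 and 126. The IFNγ library that the study left out was low in the same genes, at 41.2 for SRSF1 and 2.80 for EIF4A3. Results are therefore also given without this IL-1β library.

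In ERH-targeted cells 24 genes differed between the cytokines, 7 of them higher with IFNγ and 17 higher with IL-1β. Those higher with IFNγ were APOL6, IRF9, NLRC5, TRIM69, ANXA2R, IRF1 and SECTM1. Those higher with IL-1β were led by CSF3 and the chemokines CXCL8, CXCL1, CXCL3 and CXCL2, and included regulators of NF-κB and of cell survival. The differences on the IFNγ side were small. Apart from APOL6, which had few reads, they ran from 1.07 to 1.52 in log2, whereas the IL-1β side reached −3.75 among genes read in both groups. A gene was called at an adjusted p of at most 0.05 (edgeR quasi-likelihood test, Benjamini-Hochberg over 13370 genes) and a log2 difference of at least 1 in either direction. The calls made up 0.18% of the genes tested, 0.0524% higher with IFNγ and 0.127% higher with IL-1β. In all 24 genes the IFNγ libraries lay on 1 side of every IL-1β library. Over all genes tested, 9.36% had both IFNγ libraries above the 3 IL-1β libraries and 9.59% had both below. The median log2 difference of all genes was 0.00, and 904 genes had an unadjusted p under 0.05. With 2 IFNγ libraries the count rested on each of them, being 12 without replicate 1 and 11 without replicate 3. It was 9 with only the 5 libraries in the fit and 6 with the 3 left-out libraries of the series added. Without the IL-1β replicate that stood apart it was 23, and 22 of the 24 genes were still called, NAB1 and REL having fallen short of the fold.

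**Figure D1:**
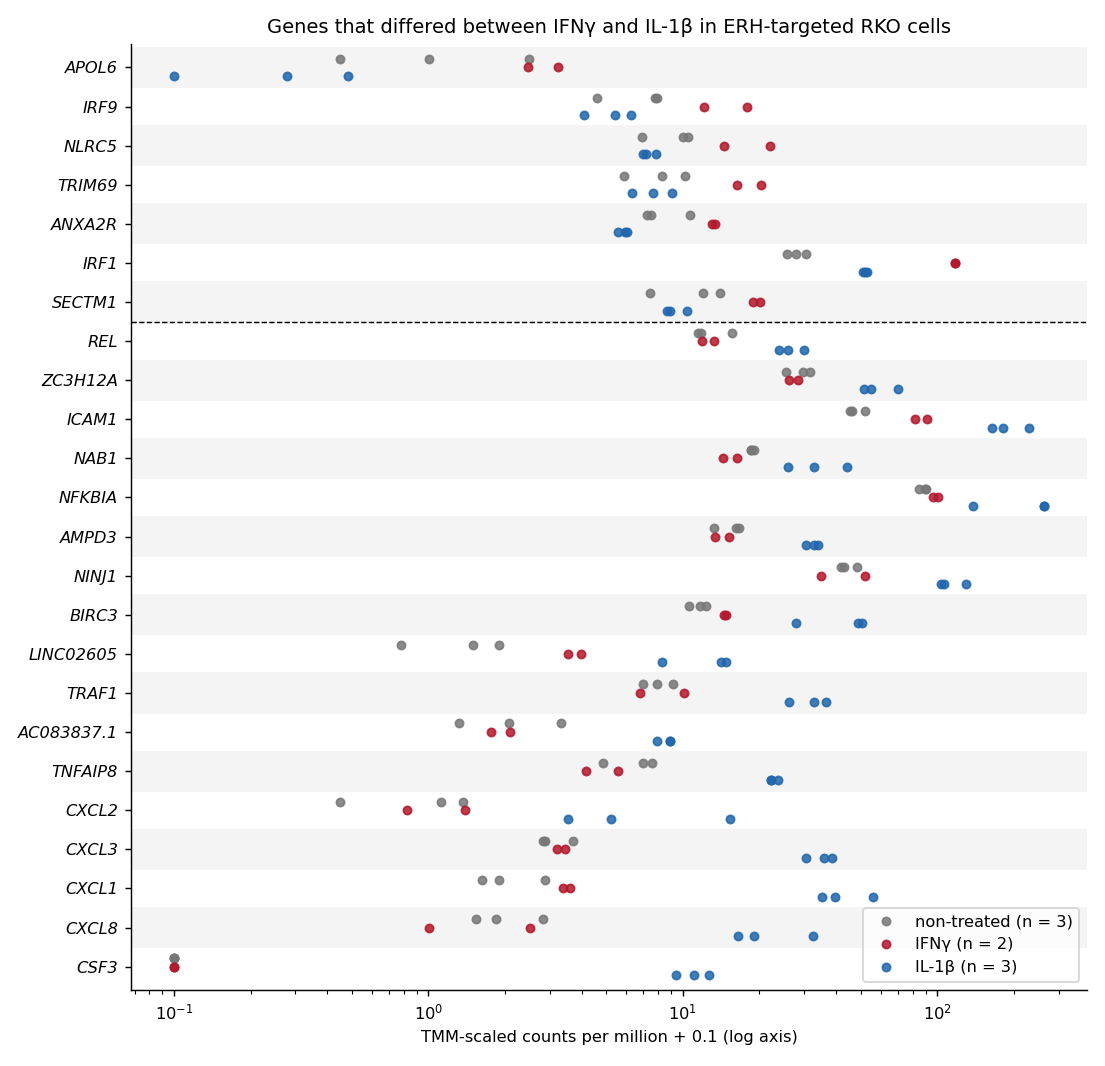
Level of each of the 24 called genes in every library of ERH-targeted cells, in TMM-scaled CPM plus 0.1 on a log axis, with non-treated libraries in grey, IFNγ in red and IL-1β in blue. Above the dashed line are the 7 genes higher with IFNγ and below it the 17 higher with IL-1β. The red and blue points of a gene do not overlap, and below the line the red points lie near the grey ones for most genes.

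IRF1, the transcription factor that relays the IFNγ signal to later target genes, was the firmest difference on the IFNγ side. It stood at 118 CPM in both IFNγ libraries and at 52.9, 52.0 and 50.9 CPM in the IL-1β libraries, so the groups were far apart relative to their spread (log2 1.18 ± 0.11 SE, 95% interval 0.95 to 1.41, adjusted p = 2.20e-07). Non-treated cells had 30.4, 25.6 and 27.9 CPM, below both cytokines. IRF1 was the only 1 of the 7 genes called in each of 12 alternative analyses, 1 of which only drops the fold threshold and so cannot lose a call.

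IRF9, the DNA-binding subunit of the ISGF3 complex, stood at 17.8 and 11.99 CPM with IFNγ and at 5.31, 4.00 and 6.14 CPM with IL-1β (log2 1.52 ± 0.29, adjusted p = 0.0102). NLRC5, the transactivator of MHC class I genes, had 14.4 and 22.0 CPM against 6.90, 7.05 and 7.72 CPM (log2 1.33 ± 0.24, adjusted p = 0.00448). For both genes every IFNγ library was above every IL-1β library. The call of IRF9 was lost without IFNγ replicate 1 and that of NLRC5 without IFNγ replicate 3, with both genes still higher with IFNγ.

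TRIM69, an interferon-induced ubiquitin ligase, had 20.2 and 16.2 CPM with IFNγ and 6.19 to 8.96 CPM with IL-1β (log2 1.26 ± 0.24, adjusted p = 0.00996). Of its reads 99.9% were multimapping, so they may belong to another locus and its value is uncertain. SECTM1, a secreted and transmembrane protein, had 19.98 and 18.7 CPM against 8.60 to 10.3 CPM (log2 1.07 ± 0.21, adjusted p = 0.0148). ANXA2R, the annexin A2 receptor, had 13.3 and 12.9 CPM against 5.44 to 5.91 CPM (log2 1.19 ± 0.27, adjusted p = 0.0486). The SECTM1 and ANXA2R groups were tight and separate. The 3 calls were lost when either IFNγ library was left out, those of TRIM69 and ANXA2R also without IL-1β replicate 1 and those of SECTM1 and ANXA2R also without IL-1β replicate 3. APOL6, a member of the interferon-induced apolipoprotein L family, rested on the fewest reads, 17 and 13 with IFNγ against 1, 2 and 0 with IL-1β. The ratio of the summed reads, each over its group total, was 15.4, with an exact 95% interval of 4.78 to 78.7 that covers counting error only (adjusted p = 0.0395). Its call was lost without any 1 of IFNγ replicate 1 or 3 or IL-1β replicate 1 or 3.

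Further genes passed the adjusted p with a smaller fold. NFU1, an iron-sulphur cluster assembly factor (log2 0.67), was higher with IFNγ. Higher with IL-1β were NFKB2 (−0.95), EHD1 (−0.89), SOD2 (−0.88), TNIP1 (−0.82), INSIG1 (−0.74), IER3 (−0.73) and RELB (−0.59), of which NFKB2 and RELB are NF-κB subunits and TNIP1 restrains the pathway. All reads of IER3 were multimapping.

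The promoters of the called genes are given with the matches to the binding motifs of the factors at the end of each pathway. RefSeq start sites (GRCh38.p14) were found for 5 of the 7 genes higher with IFNγ and 14 of the 17 higher with IL-1β, and 300 bases around each start were searched on both strands. The motif GAS, TTCNNNGAA, was found in 2 of the 5 (IRF1 and IRF9) and in 1 of the 14 (ICAM1), beside 7.88% of all 27305 promoters of that length. The motif ISRE, GAAANNGAAA, was found in SECTM1 and TRIM69 and in none of the 14, beside 2.83% for tested genes and 3.65% of all. The NF-κB motif, GGGRNNYYCC (R is A or G, Y is C or T), was found in 6 of the 14 (BIRC3, CXCL1, CXCL2, CXCL3, NFKBIA and REL) and in IRF1 of the 5. It was found in 13.1% of the promoters of tested genes and in 10.8% of all promoters. A stretch 1 letter off is not counted. ICAM1 holds such a stretch, tggaaattcc, before the bases printed here, so the lack of an NF-κB match there depends on the pattern. The 150 bases before the start of 7 genes are printed 5′ to 3′ on the strand of the gene, to show that IRF1 holds a GAS and an NF-κB match, that ICAM1 holds a GAS match, and that 3 of the chemokines share 1 match at nearly the same place. Capitals mark the matches. GAS is the match in IRF9 and ICAM1 and the first match in IRF1, the other matches are NF-κB, and in the CXCL genes a pair of overlapping matches makes 1 run.
IRF1: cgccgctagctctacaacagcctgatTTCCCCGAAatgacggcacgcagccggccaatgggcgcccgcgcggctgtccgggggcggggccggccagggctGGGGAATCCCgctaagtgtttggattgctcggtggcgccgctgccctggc
IRF9: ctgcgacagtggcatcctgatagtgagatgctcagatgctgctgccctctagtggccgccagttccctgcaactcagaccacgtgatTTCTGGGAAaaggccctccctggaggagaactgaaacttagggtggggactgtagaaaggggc
ICAM1: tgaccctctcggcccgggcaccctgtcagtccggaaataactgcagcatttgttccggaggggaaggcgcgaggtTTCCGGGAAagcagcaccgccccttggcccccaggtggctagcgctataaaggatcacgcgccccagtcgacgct
CXCL1: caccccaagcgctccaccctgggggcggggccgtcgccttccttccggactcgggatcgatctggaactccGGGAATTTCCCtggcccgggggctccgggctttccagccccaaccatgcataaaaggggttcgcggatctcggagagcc
CXCL2: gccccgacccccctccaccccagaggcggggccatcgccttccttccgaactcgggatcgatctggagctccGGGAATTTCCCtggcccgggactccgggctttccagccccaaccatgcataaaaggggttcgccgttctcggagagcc
CXCL3: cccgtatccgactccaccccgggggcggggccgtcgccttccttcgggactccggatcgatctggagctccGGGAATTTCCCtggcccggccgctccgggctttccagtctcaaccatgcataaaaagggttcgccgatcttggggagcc
NFKBIA: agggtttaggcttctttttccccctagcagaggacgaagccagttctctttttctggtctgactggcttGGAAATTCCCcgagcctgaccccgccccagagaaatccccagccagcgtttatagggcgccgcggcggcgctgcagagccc
The stretches lie at chr5:132490774-132490923 on the minus strand for IRF1, chr14:24161115-24161264 on the plus strand for IRF9, chr19:10270970-10271119 on the plus strand for ICAM1, chr4:73869243-73869392 on the plus strand for CXCL1, chr4:74099196-74099345 on the minus strand for CXCL2, chr4:74038690-74038839 on the minus strand for CXCL3 and chr14:35404750-35404899 on the minus strand for NFKBIA. The match began 79, 78 and 79 bases before the start in CXCL1, CXCL2 and CXCL3, counted from the RefSeq start, and 120 bases lined up on it without gaps were 92.5% identical between CXCL1 and CXCL3, 76.7% between CXCL1 and CXCL2 and 73.3% between CXCL2 and CXCL3. Soon after the match CXCL2 has 1 base fewer than CXCL1 and CXCL3. Without gaps the later bases are compared out of step, which lowers the percentages that involve CXCL2. A match is a stretch of letters and was not tested as a site.

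The secreted factors held the strongest differences on the IL-1β side. CSF3, which encodes the granulocyte growth factor G-CSF, had 0 reads in both IFNγ libraries and in the 3 non-treated libraries, and 62, 66 and 53 reads with IL-1β. Against a floor of 3 reads over the IFNγ group it was at least 39.7-fold higher with IL-1β (adjusted p = 3.58e-05). CXCL1 had 3.51 and 3.27 CPM with IFNγ and 39.4, 35.1 and 55.6 CPM with IL-1β (log2 −3.67 ± 0.31, adjusted p = 2.29e-08). CXCL1, CXCL2, CXCL3 and CXCL8 are neutrophil-attracting chemokines whose genes lie together on chromosome 4, from the start of CXCL8 at 73740519 to the end of CXCL2 at 74099196 (GRCh38, GENCODE 44).

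CXCL3 had 3.33 and 3.09 CPM with IFNγ and 35.7, 30.3 and 38.4 CPM with IL-1β (log2 −3.43 ± 0.29, adjusted p = 2.29e-08). CXCL8, also known as interleukin 8, had 2.40 and 0.908 CPM against 18.9, 16.4 and 32.3 CPM (log2 −3.75 ± 0.41, adjusted p = 2.28e-06). CXCL2 was lower, at 1.29 and 0.727 CPM against 5.13, 3.43 and 15.3 CPM (log2 −2.95 ± 0.65, adjusted p = 0.0425). In all 4 chemokines replicate 3 of IL-1β was the highest, and the groups did not overlap. The calls of CSF3, CXCL1, CXCL3 and CXCL8 held in all 12 alternatives, while that of CXCL2 was lost without IFNγ replicate 1 or 3 or IL-1β replicate 3.

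Of 33 chemokines and other secreted factors that the files list, 15 were tested and 5 were called, all higher with IL-1β (median log2 −0.62, −0.75 without IL-1β replicate 2). Of all genes tested 0.127% were called higher with IL-1β, and the median of all was 0.00. Another 12 of the 33 had 0 reads in the 5 libraries, among them IL6, TNF, CCL2 and CXCL5. CCL20, a lymphocyte chemokine, had few reads, at 0.185 and 0 CPM with IFNγ and 0.531, 1.33 and 2.81 CPM with IL-1β. It did not pass (log2 −3.78 ± 1.24, adjusted p = 0.57). HBEGF, an EGF receptor ligand, stood at 15.5 and 15.8 CPM with IFNγ and 25.8 to 27.1 CPM with IL-1β (log2 −0.75 ± 0.24) and did not pass either (adjusted p = 0.49).

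Among NF-κB factors and inhibitors 3 of 18 tested members were called, all higher with IL-1β, and 17 of the 18 were fitted below 0 (median log2 −0.57). Over all genes tested 0.127% were called higher with IL-1β and the median was 0.00. NFKBIA, which encodes the inhibitor IκBα, stood at 96.6 and 100.3 CPM with IFNγ and at 263, 138 and 262 CPM with IL-1β (log2 −1.17 ± 0.20, adjusted p = 0.00996). Its low IL-1β value was the library that stood apart, and without it the difference was −1.41. ZC3H12A, the endoribonuclease Regnase-1 that degrades inflammatory mRNAs, had 26.1 and 28.3 CPM against 69.9, 51.7 and 54.9 CPM (log2 −1.11 ± 0.17, adjusted p = 0.000511). REL, the c-Rel subunit, had 13.1 and 11.8 CPM against 23.7, 29.9 and 25.8 CPM (log2 −1.08 ± 0.22, adjusted p = 0.0147). In these 3 genes the IFNγ libraries were alike, with fitted log2 responses against non-treated cells of 0.16, −0.08 and −0.04. The calls of NFKBIA and REL were lost without either IFNγ library, that of REL also without IL-1β replicate 2, where its fold was −0.99, and that of ZC3H12A without IFNγ replicate 1 or IL-1β replicate 1. TNFAIP3, the ubiquitin-editing inhibitor A20, did not pass, at 3.51 and 1.45 CPM against 4.74 to 5.34 CPM (log2 −0.99 ± 0.54, adjusted p = 0.75). TNFAIP2 (log2 −0.93, adjusted p = 0.0982) was called without IL-1β replicate 2, at −1.14.

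Of survival and TNF family genes, 3 of 27 tested were called, again all higher with IL-1β, beside 0.127% of all genes. The list median was −0.29, beside 0.00 over all genes. TRAF1, an adaptor of TNF receptors, had 6.66 and 9.99 CPM with IFNγ and 36.4, 32.8 and 26.1 CPM with IL-1β (log2 −1.93 ± 0.27, adjusted p = 0.000115). BIRC3, the ubiquitin ligase cIAP2, had 14.4 and 14.7 CPM against 48.8, 27.8 and 50.4 CPM (log2 −1.54 ± 0.26, adjusted p = 0.00357). Its lowest IL-1β value was again replicate 2, and its call was lost without either IFNγ library. The third was ICAM1, the endothelial and epithelial adhesion molecule that both pathways are known to induce, at 81.4 and 90.8 CPM with IFNγ and 182, 229 and 165 CPM with IL-1β (log2 −1.15 ± 0.13, adjusted p = 4.08e-06). Non-treated cells had 45.2, 52.1 and 46.3 CPM, so that every library given either cytokine was above them.

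The other genes higher with IL-1β belonged to no list. TNFAIP8, a TNF-induced regulator of survival, had 4.07 and 5.45 CPM with IFNγ and 22.1, 23.6 and 22.1 CPM with IL-1β (log2 −2.24 ± 0.27, adjusted p = 1.46e-05), and its call held in all 12 alternatives. NINJ1, which mediates plasma membrane rupture in dying cells, had 35.0 and 52.0 CPM against 103, 130 and 106 CPM (log2 −1.38 ± 0.15, adjusted p = 3.62e-06). AMPD3, an AMP deaminase, had 13.3 and 15.1 CPM against 30.5 to 33.8 CPM (log2 −1.19 ± 0.23, adjusted p = 0.0143). The IFNγ libraries of NINJ1 lay further apart than those of TNFAIP8 and AMPD3. AMPD3 lost its call without either IFNγ library or IL-1β replicate 1. NAB1, a corepressor of EGR factors that falls outside the rule for named genes and is given to complete the 24, had 14.2 and 16.2 CPM against 32.5, 44.03 and 25.8 CPM (log2 −1.16 ± 0.21, adjusted p = 0.00691, and −0.94 without IL-1β replicate 2). The long noncoding RNA LINC02605 had 3.88 and 3.45 CPM against 14.0, 8.196 and 14.7 CPM (log2 −1.74 ± 0.36, adjusted p = 0.0192). AC083837.1, a symbol with no GENCODE 44 entry, had 1.66 and 2.00 CPM against 7.78 to 8.77 CPM (log2 −2.19 ± 0.45, adjusted p = 0.0207). The last 3 calls were lost without either IFNγ library, and those of LINC02605 and AC083837.1 also without IL-1β replicate 1 or 3.

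Non-treated cells placed each difference. Both responses share the 3 sgERH_NT libraries, so their values are given side by side. The called genes were chosen by a contrast of the same IFNγ and IL-1β libraries. Their places against non-treated cells are therefore partly set by that choice. Against non-treated cells IL-1β raised 36 genes (0.269% of those tested) and lowered 3, and IFNγ raised 2 (0.015%), IRF1 and GBP3, a guanylate-binding GTPase. Of the 17 genes higher with IL-1β, 16 were among the 36, and NAB1 was not (log2 0.87). With IFNγ 14 of the 17 lay within 0.5 in log2 of non-treated cells, the others being ICAM1 (0.85), CXCL1 (0.73) and LINC02605 (1.50). CXCL1, for example, had a log2 response of 4.40 to IL-1β and ICAM1 of 2.00.

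Of the 7 genes higher with IFNγ only IRF1 was called against non-treated cells, with a log2 response of 2.07 to IFNγ and 0.89 to IL-1β. The other 6 were fitted above non-treated cells with IFNγ, by 0.65 (ANXA2R) to 1.18 (TRIM69), and below them with IL-1β, by −0.08 (TRIM69) to −0.55 (ANXA2R) in the 5 other than APOL6. None of these passed its own test. The direct contrast of these 6 genes thus spans a higher fitted level with IFNγ and a lower one with IL-1β, neither called by itself. The 6 genes were chosen by that contrast in the same libraries, so this pattern is partly set by the choice. The number of IL-1β calls was 19 without non-treated replicate 2 and 87 without IL-1β replicate 3, and the number of IFNγ calls was 4 without non-treated replicate 2 and 5 without non-treated replicate 3.

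**Figure D2:**
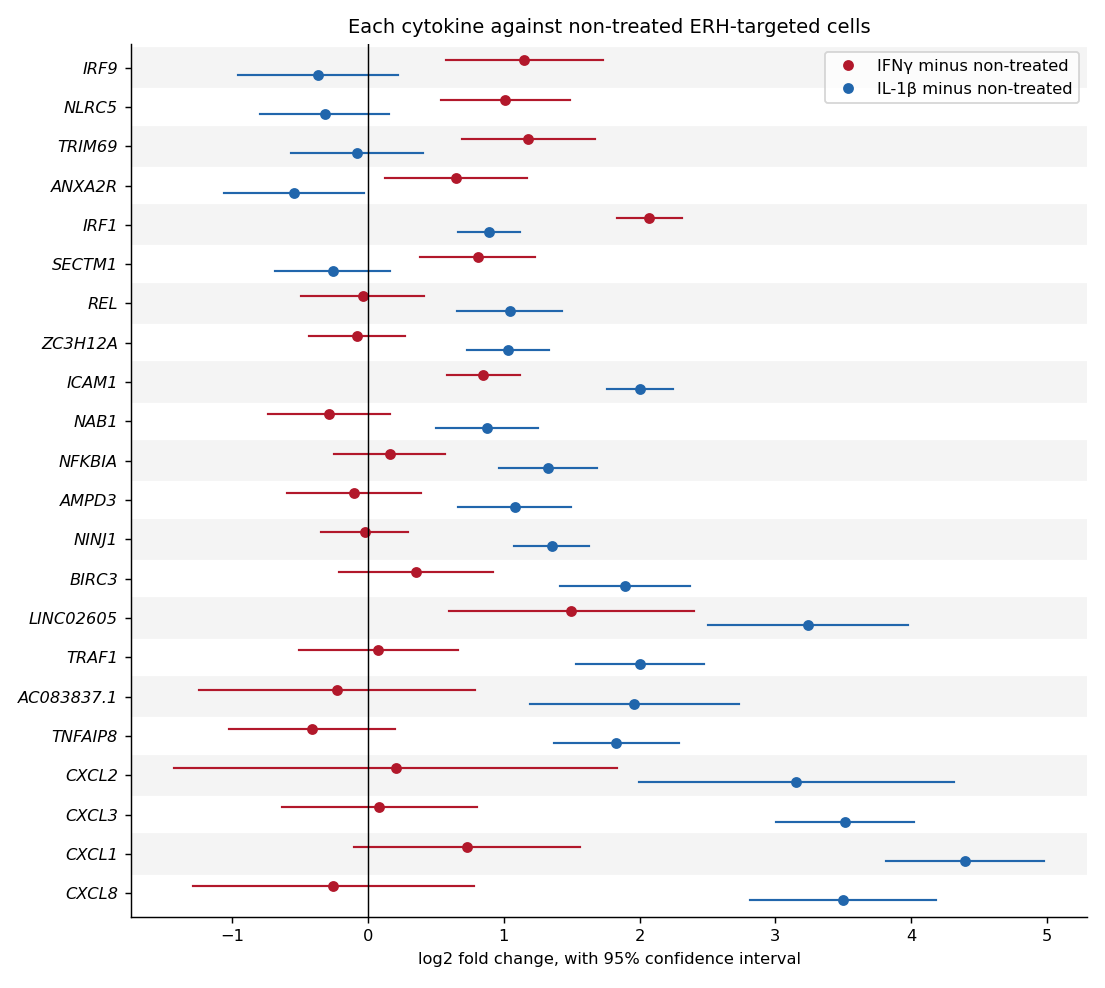
Log2 fold change of each called gene with IFNγ (red) and IL-1β (blue) against non-treated ERH-targeted cells, with 95% confidence intervals. CSF3 and APOL6 are left out because libraries had 0 reads. In the IL-1β genes other than ICAM1 and LINC02605 the red intervals span 0, and IRF1 has both intervals above 0.

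The IFNγ response list held all 7 genes higher with IFNγ and 1 higher with IL-1β, ICAM1. The list was chosen with earlier results of these data known, so this membership is a description and no test. Of its 47 members 33 were tested, with a median log2 difference of 0.31, and 25 were fitted above 0. Over all genes tested the median was 0.00 and 0.0524% were called higher with IFNγ. Another 9 had 0 reads in the 5 libraries, among them CXCL9, CXCL10, CXCL11, GBP4 and GBP5. GBP3 stood at 48.3 and 42.1 CPM with IFNγ and 27.9, 35.8 and 27.9 CPM with IL-1β (log2 0.57 ± 0.15, adjusted p = 0.19). GBP2, of the same family, had the opposite fitted sign at 1.11 and 0.545 CPM against 5.66, 1.91 and 2.98 CPM (log2 −2.07 ± 0.73, adjusted p = 0.59). Neither GTPase passed the test of the direct contrast, and GBP2 was read in few copies.

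Of the IFNγ signalling list 0 of 10 members were called by edgeR and 0 by DESeq2, with 3 at an unadjusted p under 0.05 (median 0.16). Such a p was held by 904 of all 13370 genes tested. JAK1 had 87.3 and 89.9 CPM with IFNγ against 87.9 to 99.5 CPM, and JAK2 had 44.02 and 44.5 CPM against 43.3 to 56.4 CPM, both with overlapping groups. IFNGR1, the ligand-binding receptor chain, had 8.32 and 10.5 CPM against 5.31, 2.29 and 7.37 CPM (log2 0.91 ± 0.39, adjusted p = 0.70), its lowest value being the library that stood apart. SOCS1, the feedback inhibitor, had 3.88 and 2.91 CPM against 0.762 to 3.18 CPM (log2 0.61 ± 0.54).

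In class I presentation NLRC5 was the only 1 of 21 members called (median 0.14), with 5 at an unadjusted p under 0.05 and 5 whose IFNγ libraries were both above every IL-1β library, where 9.36% of all genes were. An unadjusted p under 0.05 was held by 904 of all 13370 genes tested. ERAP1 and ERAP2, the peptide-trimming aminopeptidases, were fitted at 0.94 and 0.55 with adjusted p-values of 0.57 and 0.60. Of 26 tested antiviral genes 0 were called by edgeR and 0 by DESeq2, with 2 at an unadjusted p under 0.05 and 6 whose IFNγ libraries were both above every IL-1β library (median 0.19). IFIT3, which binds viral RNA complexes, had 11.3 and 12.7 CPM with IFNγ and 4.38 to 7.02 CPM with IL-1β (log2 1.13 ± 0.30), separate groups whose adjusted p was 0.23. IFIT1, OAS1 and RSAD2 had 0 reads in all 5 libraries.

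The remaining lists held no call by edgeR or DESeq2. An unadjusted p under 0.05 was reached by 4 p53 targets, 3 mitosis genes, 2 ATF4 stress genes, 1 AP-1 or immediate-early gene and 0 of the other lists. It was reached by 904 of all 13370 genes tested. Medians were 0.06 over 15 members of IL-1 signalling, 0.08 over 28 of AP-1 and immediate-early genes, −0.11 over 27 p53 targets, 0.05 over 18 ATF4 stress genes, 0.09 over 37 mitosis genes, 0.03 over 19 housekeeping genes and −0.03 over 17 genes of ERH and its interactors. ATF3, a stress-induced factor of the AP-1 list, had 11.1 and 8.90 CPM with IFNγ and 4.39 to 5.91 CPM with IL-1β (log2 0.96 ± 0.34, adjusted p = 0.59). Of the p53 targets GADD45A, a growth arrest gene, was at 183 and 193 CPM against 239, 279 and 277 CPM (log2 −0.49 ± 0.11, adjusted p = 0.0650) and FAS, the death receptor, at −0.57 (adjusted p = 0.66). The groups of these 3 genes did not overlap, as for 9.36% and 9.59% of all genes. ACTB and GAPDH differed by 0.16 ± 0.10 and −0.21 ± 0.12.

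The same contrast in control-guide cells gave 58 genes higher with IFNγ (0.434%) and 27 higher with IL-1β (0.202%), 85 in all and 54 without sgAAVS1_IL-1β replicate 2. All 7 of the genes higher with IFNγ under the ERH guide were among the 58, and 12 of the 17 higher with IL-1β were among the 27. Over the 58 genes the median log2 difference was 1.66 in sgAAVS1 and 0.35 in sgERH cells, and over the 27 it was −1.85 and −0.99. The genes were chosen by their call in sgAAVS1 cells, so these medians are a description with no test. TNFAIP8, AC083837.1, LINC02605, NAB1 and ICAM1 were the 5 of the 17 not called higher with IL-1β in sgAAVS1 cells. LINC02605 there had 4.51 to 5.82 CPM with IFNγ and 4.24 and 5.33 CPM with IL-1β, with overlapping groups.

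Tested directly, the cytokine contrast differed between guides for 23 genes (0.172% of those tested), in 22 of which it was lower in sgERH cells. These are counts of symbols. WARS (−1.22) and WARS1 (−1.16), the former and present symbol of 1 gene, are both among the 22. IRF1 had the widest difference of the 23, with 773 to 897 CPM with IFNγ and 27.7 and 33.2 CPM with IL-1β in sgAAVS1 cells, so that its contrast was 4.76 ± 0.14 there and 1.18 ± 0.11 under the ERH guide (difference −3.58 ± 0.17, adjusted p = 4.27e-14). With IL-1β its sgERH libraries, at 50.9 to 52.9 CPM, were above those of sgAAVS1. Of the 7 genes higher with IFNγ the difference was called for 4 (IRF1, NLRC5 at −2.08, TRIM69 at −2.03 and SECTM1 at −1.43) and was fitted below 0 for all 7. For ANXA2R, IRF9 and APOL6 it was not called, at −1.18, −0.85 and −0.60.

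ICAM1 changed the direction of its contrast. In sgAAVS1 cells it stood at 282, 283 and 267 CPM with IFNγ and 153 and 176 CPM with IL-1β, with IFNγ higher (log2 0.75 ± 0.13, adjusted p = 0.000543), whereas under the ERH guide IL-1β was higher (−1.15). The difference was −1.91 ± 0.18 (adjusted p = 2.12e-07). Its IL-1β levels, at 165 to 229 CPM under the ERH guide, overlapped those of the control guide, and its IFNγ levels did not. Non-treated ICAM1 levels were 23.7 and 21.0 CPM with the AAVS1 guide and 45.2 to 52.1 CPM with the ERH guide. DTX3L, a ubiquitin ligase that partners PARP9, and APOL2 had contrasts of 2.45 and 2.51 in sgAAVS1 cells and of 0.24 and 0.36 under the ERH guide (differences −2.21 and −2.14). In non-treated cells APOL2 stood at 9.66 and 9.25 CPM with the AAVS1 guide and at 27.2 to 37.8 CPM with the ERH guide. DTX3L overlapped between guides there, at 18.7 and 25.9 CPM beside 23.1 to 30.3 CPM. GBP3 differed by −1.57 and TMEM158, a membrane protein, by −1.63. PSMB9, an immunoproteasome subunit (−2.81), and RNU1-2, a U1 small nuclear RNA gene (−1.67), consisted of multimapping reads and are uncertain. The calls of IRF1, DTX3L, APOL2, ICAM1, GBP3 and TMEM158 held whichever library was left out. Those of NLRC5 and SECTM1 were lost without sgERH_IFNγ replicate 1 or sgAAVS1_IL-1β replicate 1, those of TRIM69 and PSMB9 without sgERH_IFNγ replicate 3 or either sgAAVS1_IL-1β library, that of SECTM1 also without sgERH_IFNγ replicate 3, sgERH_IL-1β replicate 1 or any sgAAVS1_IFNγ library, and that of RNU1-2 without either sgERH_IFNγ library, either sgAAVS1_IL-1β library or sgAAVS1_IFNγ replicate 1.

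On the IL-1β side the guide difference was called for 2 of the 17 genes, ICAM1 and NFKBIA, and 10 of the 17 were fitted above 0, which is a smaller contrast under the ERH guide. NFKBIA was the 1 gene called in that direction, with contrasts of −1.17 under the ERH guide and −2.55 in sgAAVS1 cells (difference 1.38 ± 0.27, adjusted p = 0.0492). In sgAAVS1 cells its IL-1β levels were 236 and 247 CPM, beside 138 to 263 CPM, while its IFNγ levels were 38.4 to 46.5 CPM beside 96.6 and 100.3 CPM. Non-treated cells had 36.3 and 37.5 CPM with the AAVS1 guide and 85.0 to 90.0 CPM with the ERH guide. The guides thus already differed without a cytokine. The call of NFKBIA was lost without IFNγ replicate 1 or 3 under the ERH guide. It was also lost without any 1 of the 5 sgAAVS1 libraries given a cytokine. It held without IL-1β replicate 2 of the ERH guide (1.12). The chemokines were not shown to differ between guides. CXCL1 differed by 1.99 with a 95% interval of 0.76 to 3.21 (adjusted p = 0.37), CXCL3 by 1.14 with an interval of 0.08 to 2.20 and CXCL8 by 1.18 with an interval of −0.32 to 2.68. The number of genes called was 13 and 12 without sgERH_IFNγ replicate 1 and 3, 11 and 14 without sgAAVS1_IL-1β replicate 1 and 2, and 62 without sgERH_IL-1β replicate 3, of which 35 were higher under the ERH guide. That last set of libraries keeps the IL-1β replicate that stood apart as 1 of 2. Without the replicate that stood apart the number was 32.

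**Figure D3:**
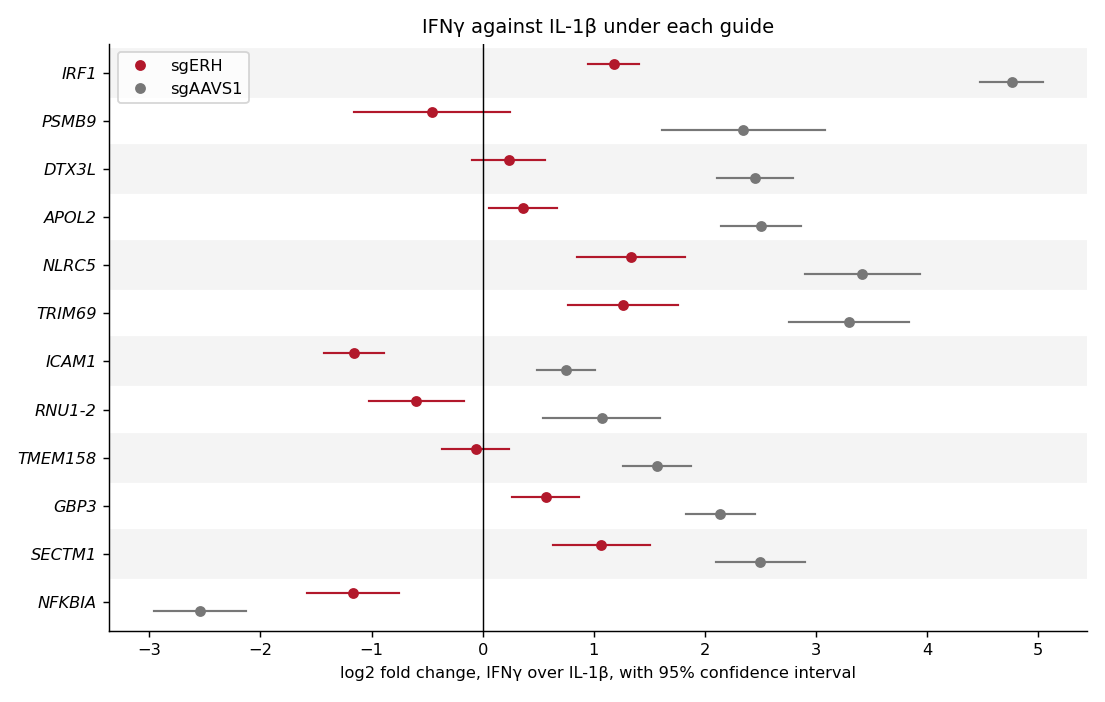
Log2 difference of IFNγ over IL-1β in cells with the ERH guide (red) and the AAVS1 guide (grey), with 95% confidence intervals, for 12 named genes whose contrast differed between guides. Red lies left of grey in 11 of the 12, ICAM1 has its points on opposite sides of 0, and NFKBIA is the gene in which red lies to the right.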

How the data were processed

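Per the labels and the study's methods, 3′ mRNA libraries (QuantSeq) were trimmed with Trim Galore 0.6.2, checked with FastQC 0.11.8, mapped to GRCh38 with SlamDunk and counted in 3′ end windows that the authors collapsed to 1 row per gene symbol. The deposited values used here are raw read counts, 1 whole number for each gene and library. The tables also hold multimapping reads (21.5% to 23.2% of reads in the 5 libraries), which a near-identical copy can share.

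Counts of the 15 libraries that the study kept (4987127 to 5986338 reads each) were fitted as 1 model of 6 groups in edgeR 4.0.16 under R 4.3.3 (TMM, filterByExpr, robust quasi-likelihood F test) over 13370 of 25001 symbols with a read. The biological coefficient of variation was 12.6%. Calls needed a Benjamini-Hochberg adjusted p of at most 0.05 and a log2 difference of at least 1 either way. Contrasts were IFNγ minus IL-1β under each guide, their difference (an interaction term), and each cytokine minus non-treated under the ERH guide. Errors of log2 values are SE, and intervals are 95% intervals of the fit. Unscaled CPM are per 1000000 of all reads. Floors (3 reads) and counting intervals cover counting error only.

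Genes and lists were chosen with earlier results of these data known. Named were a set of 20 genes, up to 12 called genes at each end with at least 5 CPM, every gene called higher with IFNγ, called list members, up to 3 near members per list, and up to 10 genes at each end of the guide difference. Alternatives were DESeq2 1.42.0, its size factors, no filter, only the groups compared, all 18 libraries, no fold threshold, a replicate block and leaving out each library. Promoters are from RefSeq (GRCh38.p14). One gene that the rule names is not reported here.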

Additional observations from a re-analysis of the deposited data

Results flagged for a closer look

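For 12 named genes the test of the difference itself separated the IFNγ against IL-1β contrast of the 2 guides. It was lower under the ERH guide in 11 of them, IRF1 (−3.58), PSMB9 (−2.81), DTX3L (−2.21), APOL2 (−2.14), NLRC5 (−2.08), TRIM69 (−2.03), ICAM1 (−1.91), RNU1-2 (−1.67), TMEM158 (−1.63), GBP3 (−1.57) and SECTM1 (−1.43), and higher in NFKBIA (1.38), in log2. IRF1 was called in each of 17 alternatives, NFKBIA in 8 of 17 and SECTM1 in 9 of 17. The alternative with no fold threshold cannot lose a call.

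The IFNγ library that the study left out under the ERH guide (replicate 2) is not among the libraries of the main fit. In it IRF1 had 105 unscaled CPM, beside 126 and 124 in the other IFNγ libraries and 26.5 to 31.5 in the non-treated libraries. ICAM1 had 141 there, beside 87.0 and 95.4. NFKBIA had 4.66, beside 103 and 105, and CXCL3 had 0.23, beside 3.56 and 3.24. In the IL-1β library that stood apart (replicate 2) NFKBIA had 141 unscaled CPM, beside 275 and 283, and IFNGR1 had 2.33, beside 5.55 and 7.95. IFNGR1 had 0.70 in the left-out IFNγ library, beside 8.89 and 11.1. What set these libraries apart was not tested.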

How the results depend on the processing

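None of the 24 called genes changed sign in 12 alternatives, and 6 of them (CSF3, CXCL1, CXCL3, CXCL8, IRF1 and TNFAIP8) were called in every one. The adjusted p alone is the same fit with no fold threshold, so it could neither lose a call nor change a sign. The main count of 24 became 6 with all 18 libraries and 9 with only the groups compared. It lay between 11 and 24 when a library was left out. DESeq2 called 21 (ANXA2R, APOL6 and CXCL2 lost), its size factors 24, no filter 25 and the adjusted p alone 33. Replicate numbers did not pair the libraries (correlations of same-numbered deviations −0.01 and −0.06), and the replicate block gave 23, with ANXA2R and APOL6 lost and TNFAIP2 added. For the control guide 85 calls became 138 on adjusted p alone and 112 with only the groups compared. They became 33 with all 18 libraries (54 to 79 leaving out a library). For the guide difference 23 became 2 with all 18 libraries (11 to 62), and it was 34 with no filter. For IFNγ minus non-treated 2 became 4 on adjusted p alone, 16 with no filter, 1 with all 18 and 16 with only the groups compared (2 to 5). For IL-1β minus non-treated 39 became 128, 68, 7 and 17 in the same order (19 to 87). Uncalled differences turned sign with all 18 libraries in ERH (−0.27), GAPDH (0.18), JAK2 (0.068), PSMB9 (0.16) and TMEM158 (0.13), and leaving out a library in ERH (−0.047 to 0.17) and TMEM158 (−0.38 to 0.19). The cause of these changes was not tested. At this depth a gene near 1 CPM has few reads, which limits APOL6, CXCL2 and CCL20.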
